A study of Rattus norvegicus with 24 samples.

Results

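The genes described here are 10 genes that mark the intercalated cells of the renal collecting duct and carry out their acid and base transport, namely Foxi1, Slc4a1, Slc26a4, Slc4a9, Insrr, Atp6v1b1, Atp6v1g3, Atp6v0d2, Rhbg and Rhcg. They were matched by rat gene symbol, and all 10 were found among the 17334 Entrez identifiers of the files and among the 12778 genes that passed the filter on low counts. No measured value was used to choose them, although earlier results of the same data were known when the list was drawn up.

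The samples were left kidneys of 24 male rats of the PKD/Mhm (Cy/+) strain aged 8 months, 6 in each of 4 groups, whose RNA was sequenced. All animals were heterozygous carriers of the Cy mutation, a missense change in Anks6 that leads to cystic kidneys, so every group including the control was cystic and there was no healthy group. The control group (Ctrl) received no treatment, and no vehicle group was described. The others were treated monthly for 6 months with human skin-derived ABCB5+ stromal cells given into the peritoneum (i.p. ABCB5+), with the same cells given into a vein (i.v. ABCB5+), or with CoCM, the medium from ABCB5+ cells cultured together with macrophages derived from the THP-1 cell line and stimulated with IFN-γ and LPS. The sources differ on the route of the medium, which is intraperitoneal in one and intravenous in the other. The control animals carry numbers from 1 to 24 and the treated animals numbers from 26 to 43, so that treatment and the order of the animals cannot be told apart.

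Intercalated cells are the acid-base cells of the connecting tubule and collecting duct. The acid-secreting (type A) cell pumps protons into the urine with a V-ATPase and returns bicarbonate to the blood through the anion exchanger AE1, the product of Slc4a1. The bicarbonate-secreting (type B) cell carries pendrin, the product of Slc26a4, on the side facing the urine and AE4, the product of Slc4a9, on the opposite side. Foxi1 is the forkhead transcription factor that both cell types need to form.

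The 250 bases before the start site of 3 members are shown because Foxi1 belongs to the forkhead family and the genes of the proton pump are its known targets. The sequences are from RefSeq on the rat assembly GRCr8, which is newer than the rn6 build listed for the files, and 7 of the 10 members had an entry. Capitals mark the forkhead core TAAACA, searched on both strands and here read on the opposite strand as TGTTTA. Atp6v1b1 lies on the plus strand at chr4:117781194-117781443, Atp6v1g3 on the plus strand at chr13:52362082-52362331 and Foxi1 on the minus strand at chr10:19314406-19314655.
Atp6v1b1: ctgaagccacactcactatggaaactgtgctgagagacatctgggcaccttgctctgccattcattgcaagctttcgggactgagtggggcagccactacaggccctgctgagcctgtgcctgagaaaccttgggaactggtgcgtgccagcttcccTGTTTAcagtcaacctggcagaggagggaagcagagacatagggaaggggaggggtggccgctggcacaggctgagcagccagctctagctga
Atp6v1g3: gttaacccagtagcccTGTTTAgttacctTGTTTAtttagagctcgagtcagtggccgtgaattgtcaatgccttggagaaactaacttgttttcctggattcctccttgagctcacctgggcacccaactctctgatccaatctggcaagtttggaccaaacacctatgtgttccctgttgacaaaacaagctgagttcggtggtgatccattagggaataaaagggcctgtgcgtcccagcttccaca
Foxi1: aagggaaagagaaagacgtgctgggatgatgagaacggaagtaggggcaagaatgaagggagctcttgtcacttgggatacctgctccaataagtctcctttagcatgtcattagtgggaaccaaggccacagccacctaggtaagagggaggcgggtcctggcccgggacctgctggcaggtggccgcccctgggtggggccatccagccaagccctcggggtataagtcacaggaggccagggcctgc
The core occurred in 2 of the 7 member promoters and in 12.1% of the 33469 rat promoters of the same length. In Atp6v1b1 its first base lay 93 bases before the start site, and Atp6v1g3 held it 234 and 221 bases before the start. The Foxi1 window held none, which says only that these letters are not in this stretch. A second motif, the paired half-sites of Tfcp2l1-type factors, was searched on both strands as well and occurred in 1 of the 7 member promoters, that of Slc4a9, and in 2.76% of all. These matches are descriptions of sequence and were not tested as binding sites.

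Library totals ranged from 9304630 to 14125457 estimated counts, so that 3 counts corresponded to between 0.212 and 0.322 CPM, the unit of the levels below, which relates counts to library size after TMM scaling. All members lay far above this floor. The first principal component of all tested genes held 56.3% of the variance and set 4 animals apart, with values of 80.8 to 97.4 against -53 to 11.5 in the other 20. These were CoCM animal 39, i.p. ABCB5+ animal 38 and i.v. ABCB5+ animals 36 and 37, so that none of them was a control. The members' and lists' differences between groups are therefore given with and without them.

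All 10 genes were expressed in every kidney. Per transcript length, the proton pump subunits Atp6v1g3 (238 ± 88.7 TPM, SD, n = 24) and Atp6v1b1 (238 ± 88.0 TPM) and the ammonia channel Rhcg (229 ± 90.3 TPM) had the highest levels. Rhbg (171 ± 76.7 TPM), Slc26a4 (163 ± 63.2 TPM) and Atp6v0d2 (138 ± 53.5 TPM) followed. Slc4a9 reached 103 ± 41.5 TPM, Foxi1 85.1 ± 31.4 TPM and Slc4a1 74.8 ± 30.7 TPM, while Insrr was lowest with 38.8 ± 17.2 TPM. Not all neighbours in this order differed beyond the spread. Atp6v1g3 exceeded Atp6v1b1 in only 13 of 24 kidneys, Rhbg exceeded Slc26a4 in 13, and Foxi1 exceeded Slc4a1 in 16. The other steps were seen in 20 to 24 of the 24 kidneys. Both cell types were thus represented by their anion exchangers in every kidney.

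Foxi1 (Entrez 287185), the transcription factor, had a mean level of 121 ± 38.4 CPM (SD, n = 6) in the control group. The lowest control kidney had 68.7 CPM, the median was 118 CPM and the highest had 173 CPM. In the CoCM group the lowest, median and highest levels were 71.1, 129 and 228 CPM. They were 94.2, 139 and 352 CPM in the i.p. ABCB5+ group and 114, 129 and 186 CPM in the i.v. ABCB5+ group. All 4 groups overlapped, and the highest value belonged to i.p. ABCB5+ animal 38, with CoCM animal 39 next.

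Slc4a1 (Entrez 24779), the basolateral bicarbonate exchanger of the acid-secreting cell, ranged in the control group from 103 to 400 CPM with a median of 170 CPM. In the CoCM group it ranged from 174 to 556 CPM with a median of 262 CPM. The i.p. ABCB5+ kidneys lay between 161 and 573 CPM (median 248 CPM) and the i.v. ABCB5+ kidneys between 165 and 352 CPM (median 250 CPM). The control kidneys overlapped with each treated group, the highest control being animal 23. Slc4a1 also encodes the band 3 protein of red cells, and the kidneys for RNA were taken before the animals were perfused, so the red cell genes were read beside it. Control animal 1 had the most erythroid RNA of all kidneys, with a summed level of 10057 CPM over the 9 measured erythroid markers against a median of 598 CPM over all 24, 3731 CPM of the globin gene Hba-a1 and 85.0 CPM of Alas2, the heme synthesis enzyme of red cell precursors. The same kidney had the lowest Slc4a1 of all 24, with 103 CPM. Over the 20 animals other than 36 to 39, after subtracting each group's mean log2 CPM, Slc4a1 had r = -0.13 with Alas2 (permutation p = 0.585, Spearman rho = 0.0090, p = 0.972) and r = -0.057 with Hba-a1 (permutation p = 0.814, rho = 0.030, p = 0.900).

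Slc26a4 (Entrez 29440), the gene of pendrin, had 208, 257 and 480 CPM as its lowest, median and highest level in the control group. The corresponding levels were 152, 330 and 627 CPM in the CoCM group, 186, 332 and 792 CPM in the i.p. ABCB5+ group and 246, 303 and 427 CPM in the i.v. ABCB5+ group. The lowest and the second highest of the 24 values thus both came from the CoCM group, in animals 26 and 39. In the rat assembly Slc26a4 shares its locus with the uncharacterized gene LOC102555378, which was not among the identifiers used here, and how the counting treated strand is not given in the sources used here. Slc4a9 (Entrez 266612), the exchanger AE4, ranged from 109 to 388 CPM in the control group, 105 to 457 CPM with CoCM, 142 to 525 CPM with i.p. ABCB5+ and 171 to 294 CPM with i.v. ABCB5+. Insrr (Entrez 60663), a receptor of the insulin receptor family that responds to alkaline pH and is found on type B cells, varied most, from 54.0 CPM in CoCM animal 26 to 349 CPM in i.p. ABCB5+ animal 38.

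The 3 V-ATPase subunits among the members are the forms that intercalated cells use in place of widely expressed ones. Atp6v1b1 (Entrez 312488) encodes subunit B1 of the part of the pump that splits ATP, and its levels ranged from 248 to 569 CPM in the control group, from 218 to 831 CPM with CoCM, from 295 to 1033 CPM with i.p. ABCB5+ and from 325 to 538 CPM with i.v. ABCB5+. Atp6v1g3 (Entrez 289407) encodes subunit G3 of the stalk. Its lowest, median and highest levels were 170, 230 and 309 CPM in the control group, 177, 273 and 582 CPM with CoCM, 202, 281 and 645 CPM with i.p. ABCB5+ and 180, 255 and 309 CPM with i.v. ABCB5+. Atp6v0d2 (Entrez 297932), subunit d2 of the membrane part, was the lowest of the 3 in CPM, from 65.4 CPM in control animal 1 to 301 CPM in i.p. ABCB5+ animal 38. Subunit d2 is also known from osteoclasts, and the 4 measured genes of the osteoclast list had summed levels of 145 to 208 CPM in the 24 kidneys, with group medians from 167 to 182 CPM.

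Rhbg (Entrez 310625) and Rhcg (Entrez 293048) encode ammonia channels of the collecting duct, the former on the basolateral side and the latter mostly on the apical side, and neither is restricted to intercalated cells. Rhbg had 102, 140 and 272 CPM as its lowest, median and highest level in the control group and 95.7, 183 and 398 CPM with CoCM. With i.p. ABCB5+ the levels were 121, 172 and 575 CPM, and with i.v. ABCB5+ they were 140, 185 and 253 CPM. Rhcg ranged from 163 CPM in CoCM animal 26 to 775 CPM in i.p. ABCB5+ animal 38. As for the other members, no treated group was separated from the control group.

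**Figure D1:**
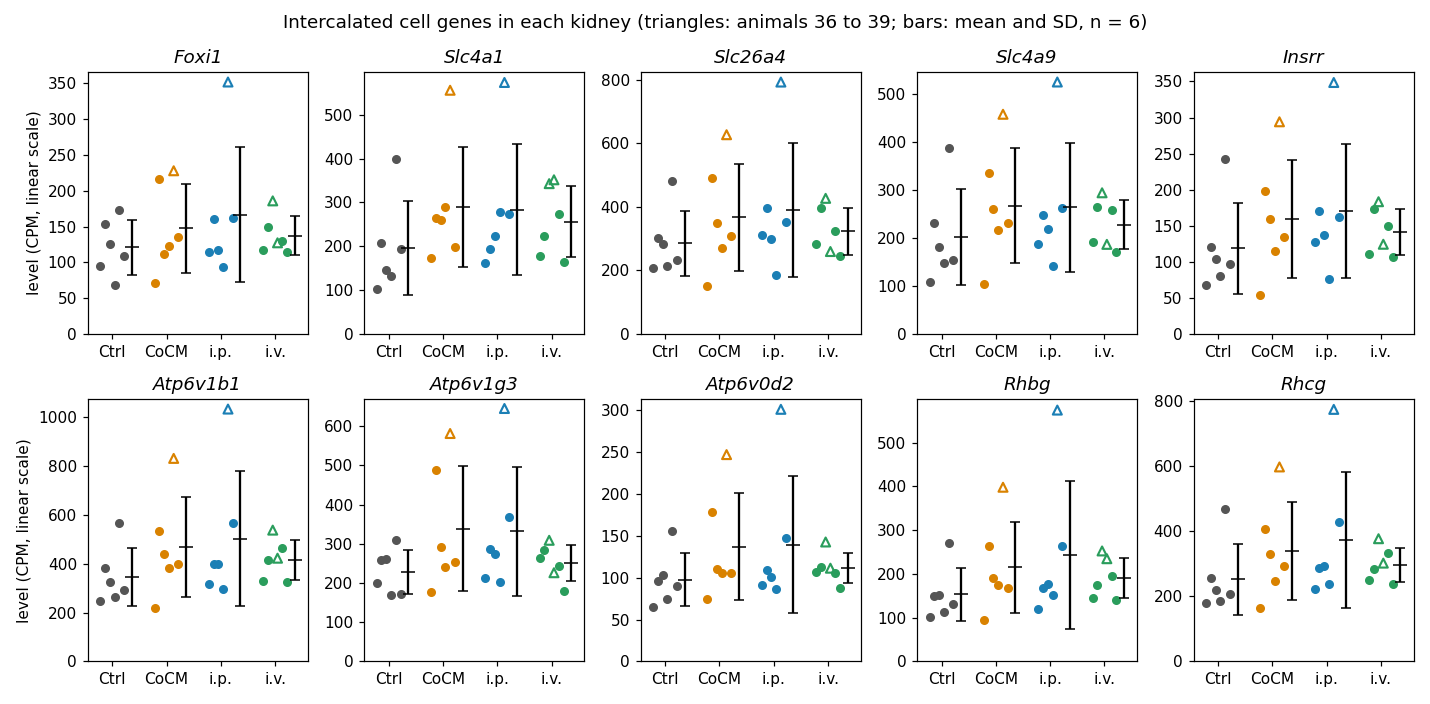
Level of the 10 intercalated cell genes in CPM on linear axes that start at 0, 1 point per kidney, by group (n = 6 each), with triangles for animals 36 to 39 and bars for the mean and SD. The groups overlap in all panels, and the triangle of i.p. ABCB5+ animal 38 is the highest point in each.

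In the comparison of CoCM with the control group, 0 of the 10 members passed the test (edgeR quasi-likelihood test, Benjamini-Hochberg adjusted p under 0.05), where 0.00783% of all 12778 genes did. At an unadjusted p under 0.05 the edgeR count was 0 of 10 against 11.9% of all genes. With DESeq2 it was 1 of 10 (Atp6v1g3, unadjusted p = 0.0498). After adjustment DESeq2 called 0 of 10 members and 81 of all 12778 genes. The mean level was higher with CoCM for all 10 members, whereas 51.4% of all genes had a log2 fold change above 0. The members' log2 fold changes ran from 0.29 (Foxi1) to 0.57 (Atp6v1g3) with a median of 0.43, against a median of 0.0088 over all genes. Atp6v1g3 had the smallest adjusted p (log2 fold change 0.57, SE 0.28, edgeR adjusted p = 0.427), equal to 1.48-fold with a 95% interval of 0.986-fold to 2.23-fold. Slc4a1 came next in size (log2 fold change 0.56, SE 0.34, edgeR adjusted p = 0.484). Because the members vary together between animals, as shown further on, their shared sign is not the count of 10 separate results.

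For i.p. ABCB5+ against the control group, 0 of 10 members passed the adjusted threshold (0% of all genes did) and 0 of 10 had an unadjusted p under 0.05 (1.77% of all genes). DESeq2 gave the same counts of 0. All 10 log2 fold changes were above 0, compared with 51% of all genes, and they ran from 0.38 (Slc4a9) to 0.66 (Rhbg) with a median of 0.53 against 0.0037 over all genes. The edgeR adjusted p was 0.978 for every member. Rhbg was 1.58-fold higher on average, with a 95% interval of 0.957-fold to 2.62-fold.

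For i.v. ABCB5+ against the control group the edgeR counts were again 0 of 10 after adjustment (0% of all genes) and 0 of 10 before it (5.78% of all genes). DESeq2 gave the same member counts of 0 and called 1 of all 12778 genes after adjustment. The 10 log2 fold changes were above 0, as were 52.6% of those of all genes, but smaller, from 0.14 (Atp6v1g3) to 0.38 (Slc4a1) with a median of 0.21 against 0.013 over all genes. Slc4a1 had the smallest adjusted p (SE 0.34, edgeR adjusted p = 0.707). All 3 comparisons share the same 6 control kidneys.

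The size of these differences rested on a few kidneys. Without animals 36 to 39 the members' median log2 fold change was 0.18 with CoCM, 0.19 with i.p. ABCB5+ and 0.11 with i.v. ABCB5+, with 0 of 10 called in each. Leaving out CoCM animal 39 alone gave a CoCM median of 0.19, and leaving out animal 38 alone gave an i.p. ABCB5+ median of 0.19. Control animal 23 acted in the other direction. Without it the medians were 0.67, 0.69 and 0.45 for the CoCM, i.p. and i.v. groups, and the smallest unadjusted p of any member was 0.0104 with CoCM, 0.0105 with i.p. ABCB5+ and 0.0352 with i.v. ABCB5+, with smallest edgeR adjusted p of 0.320, 0.995 and 0.685.

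**Figure D2:**
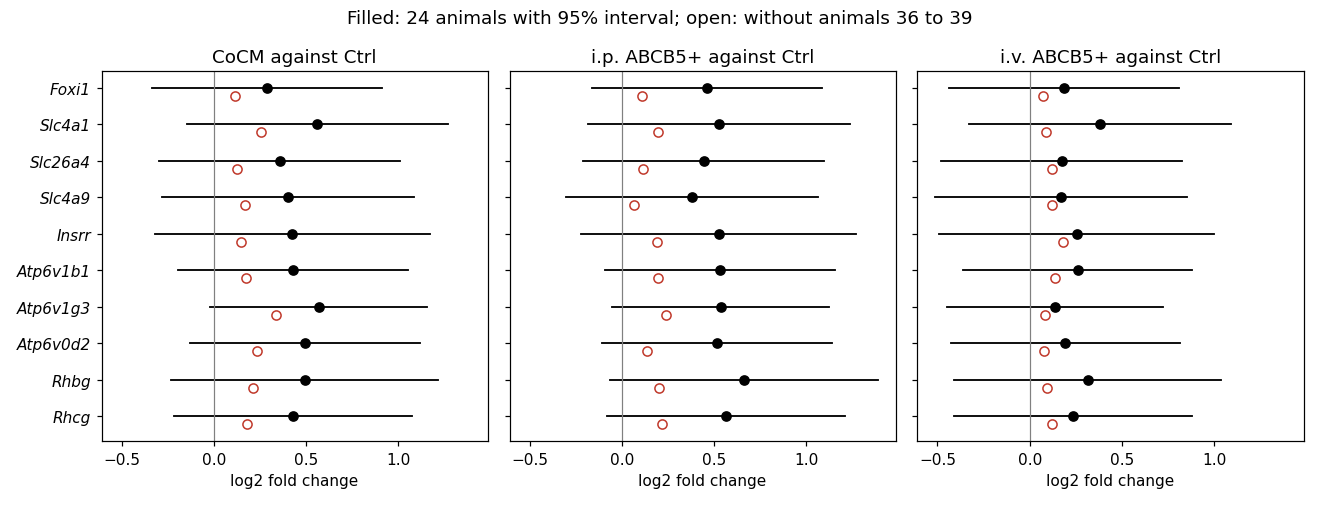
Log2 fold change of each member against the control group in a panel for each treatment, with filled points and 95% intervals for all 24 animals and open points for the 20 animals other than 36 to 39. Every interval includes 0, and every open point lies nearer to 0 than its filled point.

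The 2 routes of giving the cells were compared directly. Of the 10 members, 0 passed the edgeR test between i.p. and i.v. ABCB5+ (0% of all genes), and 0 had an unadjusted p under 0.05 (2.14% of all genes). The members' log2 fold changes of i.p. over i.v. ran from 0.15 to 0.40 (median 0.28), with 10 of 10 above 0 against 6367 of all 12778 genes. Without animals 36 to 39 they ran from -0.053 to 0.15 (median 0.058), with 8 of 10 above 0 against 6425 of all 12884 genes. Without i.p. animal 38 alone they ran from -0.17 to 0.11 (median -0.056) with 1 of 10 above 0. CoCM compared with the mean of both cell groups gave 0 of 10 after adjustment (0% of all genes) and 0 of 10 before it (7% of all genes), with log2 fold changes from -0.037 to 0.23 (median 0.042) with all animals and from -0.042 to 0.18 (median 0.046) without animals 36 to 39, 9 of 10 being above 0 in each. Of all genes, 6148 of 12778 were above 0 with all animals. The direction of the members rested on single kidneys, since their median was -0.18 with 1 of 10 above 0 without CoCM animal 39. Without i.p. animal 38 it was 0.22 with 10 of 10 above 0. DESeq2 also called 0 of 10 in both comparisons, and 1 and 3 of all 12778 genes.

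The other genes of the pathway, from lists drawn up together with the members, gave no call either. Of 22 further V-ATPase subunits and accessory genes 21 were tested, and 0 passed in any comparison with the control group, with median log2 fold changes of 0.19 with CoCM, 0.22 with i.p. ABCB5+ and 0.11 with i.v. ABCB5+. Without animals 36 to 39 these medians were 0.098, 0.018 and 0.0052. Atp6v0a2, a widely expressed form of subunit a, had a log2 fold change of -0.34 with CoCM (SE 0.15, unadjusted p = 0.0265, edgeR adjusted p = 0.383). Of 22 other intercalated cell genes 19 were tested and 0 passed, with medians of 0.15, 0.19 and 0.13, and of -0.067, 0.080 and 0.054 without animals 36 to 39, so that the CoCM median changed sign. Dmrt2, a transcription factor of these cells, had a log2 fold change of 0.41 with CoCM (SE 0.19, unadjusted p = 0.0449, edgeR adjusted p = 0.411). Bsnd, which encodes barttin, had 0.67 with i.p. ABCB5+ (SE 0.31, unadjusted p = 0.0410, edgeR adjusted p = 0.978). Without animals 36 to 39 the highest log2 fold change of any gene in this list was 0.32 with CoCM and 0.33 with i.p. ABCB5+. Of 12 acid-base genes of other nephron segments all 12 were tested and 0 passed, with medians of 0.053, 0.035 and 0.12, and of -0.053, -0.0023 and 0.073 without animals 36 to 39. Slc4a4, the sodium bicarbonate cotransporter of the proximal tubule, had a log2 fold change of -0.95 with CoCM (SE 0.40, edgeR adjusted p = 0.383). Slc38a3, a glutamine transporter that feeds ammonia production, had 1.48 with i.v. ABCB5+ (SE 0.67, edgeR adjusted p = 0.673). Without animals 36 to 39 no gene of this list exceeded 0.36 with i.v. ABCB5+, Slc38a3 included.

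Markers of the neighbouring cells stood beside the members in the same comparisons. The 10 principal cell markers, for the other main cell of the collecting duct, had median log2 fold changes of 0.33 with CoCM, 0.42 with i.p. ABCB5+ and 0.048 with i.v. ABCB5+, while the 5 fibroblast markers had -0.57, -0.49 and -0.57 and the 6 leukocyte markers -0.44, -0.41 and -0.49. Without animals 36 to 39 the medians were 0.22, 0.24 and 0.063 for the principal cell, -0.34, -0.29 and -0.18 for the fibroblast and -0.21, -0.19 and -0.076 for the leukocyte list. The 5 thick ascending limb markers had 0.36, 0.63 and 0.52 with all animals and 0.20, 0.55 and 0.065 without animals 36 to 39. The 5 tested markers of the distal convoluted and connecting tubule had 0.26, 0.42 and 0.051, and -0.018, 0.081 and 0.051 without those animals. The 5 tested markers of injured tubules had -0.10, -0.20 and -0.49, and 0.14, 0.057 and 0.038 without them. The 5 endothelial markers had -0.44, -0.076 and -0.093, and -0.42, -0.11 and -0.044 without them. The 8 proximal tubule markers had -0.20, -0.020 and 0.52, and -0.34, -0.22 and 0.013 without them. The 8 tested erythroid markers had -0.74, -0.91 and -1.14, and -0.67, -0.79 and -1.12 without them. In these lists 0 genes passed the test with all animals or without animals 36 to 39. Summed over its 5 genes, the fibroblast list ranged from 903 to 3284 CPM in the control group, 195 to 2644 CPM with CoCM, 299 to 2188 CPM with i.p. ABCB5+ and 484 to 2216 CPM with i.v. ABCB5+. Its lowest value was in CoCM animal 39 and the lowest of the i.p. ABCB5+ group in animal 38, the same kidneys in which the members were high. These kidneys also had the lowest summed injured tubule markers of their groups, 517 CPM in CoCM animal 39 and 532 CPM in i.p. ABCB5+ animal 38 against group medians of 7671 and 8451 CPM. Most of this sum was Spp1, with a median of 7813 CPM against 8264 CPM for the summed list over all 24 kidneys. In the i.v. ABCB5+ group animal 36 had the lowest fibroblast sum (484 CPM) and animal 37 the lowest injured tubule sum (872 CPM, group median 8365 CPM). Their members were on average only 0.41 and 0.0065 above the mean of the 24 kidneys on the log2 scale. The part of these markers in the members' levels was not tested. In whole kidney RNA, fewer intercalated cells and less RNA per intercalated cell cannot be told apart.

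The members varied widely between animals of the same group. The within-group SD of the members on the log2 CPM scale ran from 0.50 (Atp6v1g3) to 0.65 (Insrr), against a median of 0.30 over all tested genes, and placed them between the 73.1 and 82.8 percentile of all genes. I.p. ABCB5+ animal 38 was the highest of 24 kidneys for 10 of 10 members. CoCM animal 39 was among the 4 highest for 10 members, control animal 23 for 8 and CoCM animal 27 for 7. At the other end, CoCM animal 26 was the lowest kidney for 6 members and control animals 1 and 22 for 2 each. I.v. ABCB5+ animals 36 and 37, which stood apart over all genes as well, were not extreme here, with members on average 0.41 and 0.0065 above the mean of the 24 kidneys on the log2 scale.

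**Figure D3:**
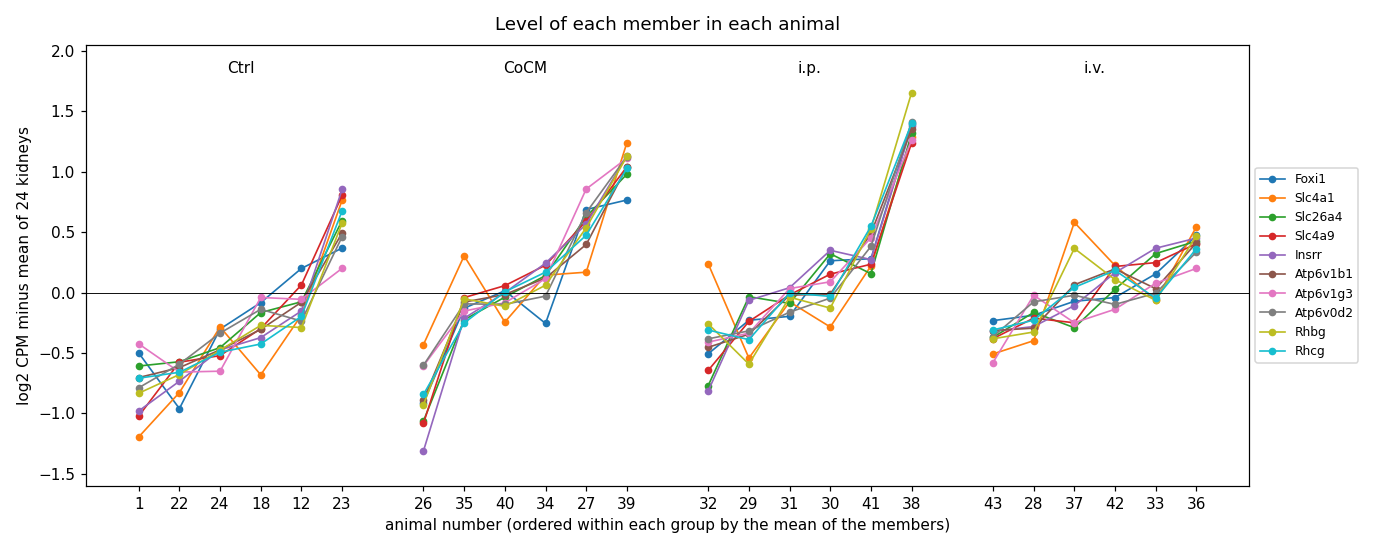
Log2 CPM of each member minus its mean over the 24 kidneys, with 1 line per gene and the animals of each group (Ctrl, CoCM, i.p. ABCB5+, i.v. ABCB5+) ordered by the mean of the 10 members. The lines run close together from CoCM animal 26 at the bottom to i.p. ABCB5+ animal 38 at the top, and the line of Slc4a1 departs most often.

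How closely the members moved together was measured over the 20 animals other than 36 to 39 after subtracting each group's mean log2 CPM. The 45 pairs of members had Pearson r from 0.49 to 0.98 with a median of 0.87, and 37 of the 45 were above 0.8. Spearman rho ran from 0.463 to 0.988. The largest permutation p, adjusted by the Benjamini-Hochberg method over the 52 relations computed, was 0.0281 for Pearson and 0.0445 for Spearman. With the 2 animals farthest from the median left out for each pair, r ran from 0.302 to 0.969. These values share library scaling and tissue composition, and the pairs are not independent of each other.

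The closest pair was Slc4a9 and Insrr (r = 0.98, rho = 0.955, each with permutation p = 1e-05, the smallest that the 100000 resamples can give), followed by Slc26a4 and Insrr (r = 0.98, rho = 0.988) and Atp6v1b1 and Rhcg (r = 0.98, rho = 0.985). The first 2 of these join genes of the type B cell. Slc4a1 was the loosest member, with a median r of 0.71 to the other 9. It had r = 0.49 with Atp6v1g3 (rho = 0.463, adjusted permutation p = 0.0281), 0.54 with Slc26a4, 0.55 with Foxi1 and 0.65 with Insrr, and 0.81 at most, with Rhbg. Outside the list, in genes chosen after their values were seen and so given with no test, Slc4a1 had r = 0.89 with Aqp6, a water channel of type A cells (rho = 0.886, r = 0.80 without the 2 farthest animals), and r = 0.74 with Oxgr1, the oxoglutarate receptor of type B cells. Slc26a4 showed the reverse order, with r = 0.50 for Aqp6 (rho = 0.451, r = 0.17 without the 2 farthest animals) and r = 0.81 for Oxgr1 (rho = 0.824). Whether the r values of Aqp6 and Oxgr1 differ from each other was not tested.

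The balance of the 2 anion exchangers also differed between kidneys. The ratio of Slc26a4 to Slc4a1 in CPM was 2.06 in i.p. ABCB5+ animal 30 and 2.03 in control animal 1, but 0.672 in animal 32 of the i.p. group, 0.738 in animal 37 of the i.v. group and 0.871 in CoCM animal 26. Only these 3 animals and CoCM animal 35 (0.935) had more Slc4a1 than Slc26a4 counts, and none of them was a control. Per transcript length this did not hold, since Slc26a4 was above Slc4a1 in TPM in each of these kidneys. The levels of Slc26a4 and Slc4a1 were 86.9 and 80.0 TPM in animal 32 and 97.6 and 81.7 TPM in animal 37. They were 67.7 and 48.1 TPM in animal 26 and 132 and 87.2 TPM in animal 35. The mean log2 ratio in CPM was 0.62 ± 0.33 (SD, n = 6) in the control group, 0.31 ± 0.43 with CoCM, 0.44 ± 0.57 with i.p. ABCB5+ and 0.36 ± 0.45 with i.v. ABCB5+. None of the comparisons passed a two-sided exact permutation test, the difference of CoCM from control being -0.31 (exact p = 0.180, adjusted over 20 ratio tests 0.714). Animal 32 had 277 CPM of Slc4a1, the highest of its group after animal 38, together with the lowest Slc26a4 of its group, 186 CPM.

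A second ratio, chosen after the first had been seen, was that of Aqp6 to Slc4a9, which sets another type A gene against another type B gene. Animal 32 had its highest value as well, a log2 ratio of 0.34, while the other 23 kidneys lay between -1.35 and -0.37. Over the 20 animals both log2 ratios, each taken relative to its group mean, had r = -0.70 and rho = -0.54, and r = -0.49 without the 2 farthest animals. This is a description with no test, since the genes were chosen for it and since Slc4a1 with Aqp6 (r = 0.89) and Slc26a4 with Slc4a9 (r = 0.95) already varied together.

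**Figure D4:**
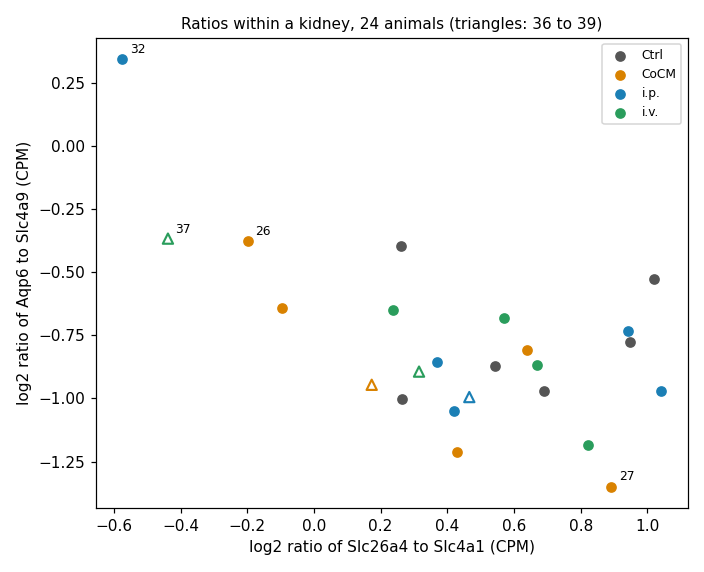
Log2 ratio of Slc26a4 to Slc4a1 against the log2 ratio of Aqp6 to Slc4a9, both in CPM, 1 point per kidney for 24 animals in 4 groups, with triangles for animals 36 to 39. Animal 32 lies alone at the upper left (-0.57 and 0.34), followed by i.v. ABCB5+ animal 37 and CoCM animal 26, and the control kidneys all lie to the right of 0.

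The proton pump has several exchangeable subunits, and those of the list were set against their widely expressed partners. In TPM, B1 (Atp6v1b1) made up 61.5 ± 8.70% (SD, n = 24) of the sum with its partner B2 (Atp6v1b2), from 44.6% in control animal 22 to 78.0% in i.p. ABCB5+ animal 38. The share of G3 (Atp6v1g3) in its sum with G1 (Atp6v1g1) was 44.5 ± 8.59%, from 32.1% in CoCM animal 26 to 62.7% in animal 38. The share of d2 (Atp6v0d2) in its sum with d1 (Atp6v0d1) was lower, 29.3 ± 5.81%, lowest in i.v. ABCB5+ animal 37 and highest in animal 38 with 41.6%. For subunit d the renal form was thus the less abundant of both in all 24 kidneys.

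By group the B1 share was 56.8 ± 9.95% (SD, n = 6) in the control group, 65.0 ± 8.29% with CoCM, 64.9 ± 8.62% with i.p. ABCB5+ and 59.3 ± 6.73% with i.v. ABCB5+. The log2 ratio of Atp6v1b1 to Atp6v1b2 in CPM was 0.50 higher with CoCM than in the control group (two-sided exact permutation p = 0.160, adjusted over 20 ratio tests 0.714) and 0.50 higher with i.p. ABCB5+ (exact p = 0.160, adjusted 0.714). Without animals 36 to 39 the differences were 0.38 (exact p = 0.273) and 0.32 (exact p = 0.323). Of the 20 ratio tests, 0 had an unadjusted p under 0.05, where the smallest p that 6 against 6 animals allow is 0.00216.

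Among the other V-ATPase genes, r with the members differed widely. Over the 20 animals, Atp6v1c2, the renal form of subunit C, had r = 0.97 with the mean of the 10 members, Atp6v0a4, the renal form of subunit a, 0.80, and Atp6v1a, the only catalytic subunit A, 0.80. The accessory genes Atp6ap1 and Atp6ap2 had 0.74 and 0.70. The widely expressed partners had lower values, with r = 0.42 for Atp6v0a1, -0.31 for Atp6v1b2, -0.23 for Atp6v1c1, -0.50 for Atp6v1g1 and 0.14 for Atp6v0d1. They also varied less within groups, with SDs of 0.078 (Atp6v0a1) to 0.30 (Atp6v0d1) on the log2 scale against 0.53 for Atp6v1c2 and 0.49 for Atp6v0a4. These r values are descriptions over 20 animals and carry no test.

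**Figure D5:**
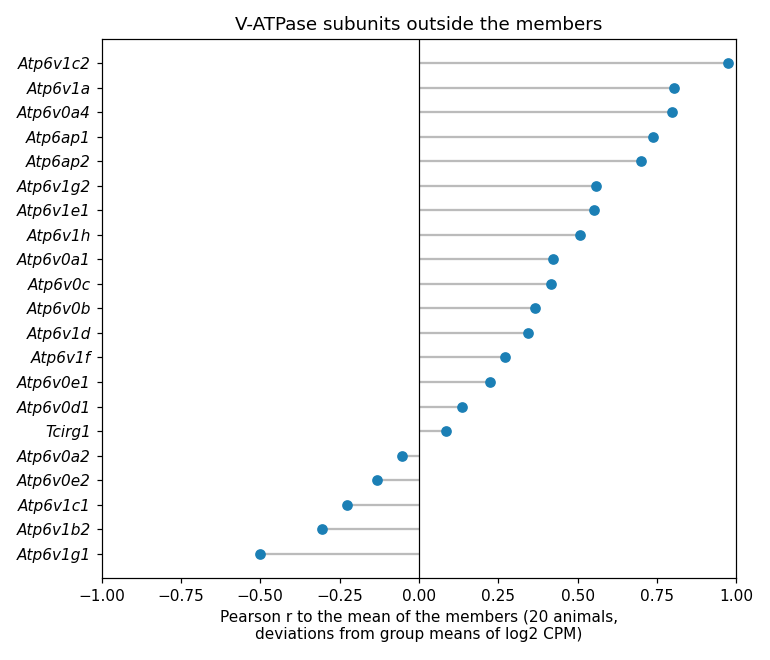
Pearson r of 21 further V-ATPase genes with the mean of the 10 members, over the 20 animals other than 36 to 39 after subtracting each group's mean log2 CPM. Atp6v1c2 leads with 0.97, followed by Atp6v1a and Atp6v0a4 at 0.80, and Atp6v1g1 is lowest at -0.50.

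Over all tested genes, those most like Foxi1 outside the list were Hepacam2 (r = 0.94), Atp6v1c2 (0.90), Hmx2 (0.89), Arhgap18 (0.89), Tmem117 (0.89), Muc20 (0.89), Sowahc (0.87) and A4galt (0.87), over the same 20 animals. Among all 12777 other genes ranked by r to Foxi1, Slc26a4 stood at rank 3, Atp6v0d2 at 8, Atp6v1g3 at 9, Atp6v1b1 at 12, Insrr at 13, Slc4a9 at 16, Rhbg at 31 and Rhcg at 32, whereas Slc4a1 stood at 540. With all 24 animals the r of Slc4a1 to Foxi1 was 0.73 in place of 0.55. Genes most like the mean of the members included A4galt (r = 0.97), Atp6v1c2 (0.97), Ly6g6e (0.97), Hepacam2 (0.97), Tmem117 (0.96), Rnf222 (0.95) and Tmem45b (0.94).

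The mean of the members was also set against the marker lists over the 20 animals, as a description. The 5 tested markers of the distal convoluted and connecting tubule had r = 0.89 with it (rho = 0.856), the 10 principal cell markers r = 0.84 (rho = 0.893) and the other intercalated cell genes r = 0.84 (rho = 0.820). Among the principal cell markers r was 0.93 for Hsd11b2, the enzyme that shields the mineralocorticoid receptor from glucocorticoids, 0.92 for Scnn1g and 0.92 for Scnn1b, subunits of the sodium channel ENaC, and 0.74 for the water channel Aqp2. The thick ascending limb had r = -0.045 and the proximal tubule r = -0.25. The lists of fibroblast, injured tubule and leukocyte markers had negative values, r = -0.61, -0.53 and -0.52.

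Acid-base genes of other segments showed no such relation as a list (r = -0.068), but its genes differed. Slc4a2, the anion exchanger AE2, had r = 0.68 with the mean of the members, while Slc9a3, the sodium proton exchanger of the proximal tubule, had -0.13, Pck1, an enzyme of glucose formation, -0.13 and Slc38a3 -0.18. In i.v. ABCB5+ animal 37, Slc38a3 was the highest of all kidneys with 740 CPM, as was Slc9a3 with 166 CPM, while its Slc26a4 level of 260 CPM was below the median of all 24 kidneys, 305 CPM.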

How the data were processed

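Whole left kidney RNA of 24 rats, 6 per group, was sequenced on the BGISEQ-500 platform. The submitters' processing notes list Trim Galore 0.6.4, kallisto 0.4.6 and the rat build rn6, while the methods of the study mention hg19 gene models, which are human, and DESeq2. Raw estimated counts per gene were deposited, of which 86.4% to 87.3% per library were exactly whole, with no tolerance. TPM, deposited as well, is scaled by transcript length and library and had totals of 964191 to 976409. The counting of strand is not given in the sources used here. Gene symbols came from a RefSeq table, in which 17179 of 17334 identifiers were found.

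Estimated counts were rounded, filtered with filterByExpr and scaled by TMM, and compared in edgeR 4.0.16 (R 4.3.3), in a model of 4 group means over all 24 kidneys, with the quasi-likelihood test and Benjamini-Hochberg adjustment over 12778 genes at a threshold of 0.05. The main test was edgeR and not the DESeq2 named by the study, and DESeq2 1.42.0 and limma 3.58.1 were alternatives. CPM values were TMM-scaled, and log2 CPM used a prior count of 2. Ratios within a kidney were compared by a two-sided exact permutation test over animals, and relations by 100000 permutations. The code was tested on simulated data. Groups came from the sample labels and each animal is 1 replicate with its own number. Floors of 3 counts cover counting error only. The members and all lists were chosen with earlier results of these data known. All 10 members were named, together with up to 3 genes per list and comparison with an unadjusted p under 0.05, the isoform partners of the members and the 8 genes most like Foxi1 or the members' mean, of which some are not reported here. The genes Aqp6 and Oxgr1, the genes of the marker lists given with an r value, and the genes named for single kidneys were chosen after their values were seen. Tests were repeated without each animal in turn, without animals 36 to 39, with other scaling and filters, with only the groups compared, and on log2(TPM + 1).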

Additional observations from a re-analysis of the deposited data

Results flagged for a closer look

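A kidney was singled out where its distance to the nearest animal of its group exceeded Dixon's 95% critical value for groups of 6. Of 56 combinations of measure and group 16 met this, where about 2.8 would by chance if the measures were independent, which they are not. I.p. ABCB5+ animal 38 was high for all 10 members, with 352 CPM of Foxi1, 573 CPM of Slc4a1, 792 CPM of Slc26a4, 1033 CPM of Atp6v1b1, 301 CPM of Atp6v0d2, 645 CPM of Atp6v1g3, 575 CPM of Rhbg, 775 CPM of Rhcg, 525 CPM of Slc4a9 and 349 CPM of Insrr. Control animal 23 was high for 5 of them, with 400 CPM of Slc4a1 (399.7), 480 CPM of Slc26a4 (480.2), 272 CPM of Rhbg, 469 CPM of Rhcg and 243 CPM of Insrr. CoCM animal 39 was high for Slc4a1 with 556 CPM. In control animal 23 the summed fibroblast markers, 903 CPM, were the lowest of the control group and the summed principal cell markers, 3120 CPM, the highest. Their part in these values was not tested.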

How the results depend on the processing

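In every alternative run, 0 of the 10 members were called in any of the 5 comparisons, and all member fold changes against the control group stayed above 0. The members' median log2 fold change ranged over the alternatives from 0.18 to 0.67 with CoCM, 0.19 to 0.69 with i.p. ABCB5+ and 0.11 to 0.45 with i.v. ABCB5+, as well as from -0.056 to 0.41 between i.p. and i.v. ABCB5+ and from -0.18 to 0.22 between CoCM and the cell groups, and in the comparisons with control the smallest edgeR, DESeq2 or limma adjusted p of any member was 0.307, 0.821 and 0.556. The 1 gene called over all genes with CoCM became 81 with DESeq2 and 0 on log2(TPM + 1), with only the groups compared and without animals 36 to 39, and 0 to 31 when 1 animal was left out (31 without control animal 23). DESeq2 called 1 gene with i.v. ABCB5+, 1 between i.p. and i.v. ABCB5+ and 3 between CoCM and the mean of the cell groups, where edgeR called 0. Some ratio differences, none of which passed its test, changed sign. Without animals 36 to 39 the log2 ratio of Atp6v0d2 to Atp6v0d1 differed by 0.12 for i.v. ABCB5+ against control (-0.03 with all animals), by -0.026 for i.p. against i.v. and by -0.026 for CoCM against the cell groups, that of Atp6v1g3 to Atp6v1g1 by -0.036 for CoCM against the cell groups, and that of Slc26a4 to Slc4a1 by -0.13 for i.p. against i.v. Leaving out 1 animal at a time gave, for i.v. ABCB5+ against control, -0.00158 to 0.32 for Atp6v1b1 to Atp6v1b2, -0.11 to 0.12 for Atp6v0d2 to Atp6v0d1 and -0.0322 to 0.22 for Atp6v1g3 to Atp6v1g1. For CoCM against the cell groups it gave -0.020 to 0.21 for Atp6v0d2 to Atp6v0d1, -0.079 to 0.27 for Atp6v1g3 to Atp6v1g1 and -0.21 to 0.00471 for Slc26a4 to Slc4a1. For Slc26a4 to Slc4a1 it gave -0.30 to 0.0260 for i.p. ABCB5+ against control and -0.0783 to 0.29 for i.p. against i.v. The cause was not tested. No paired analysis was possible because the animals' numbers are not shared between groups.

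The limits are 6 animals a group, a within-group SD of the members of 0.50 to 0.65 on the log2 scale and whole kidney tissue. The 95% intervals give the range of differences that the data allow, and no smallest detectable difference was computed. A p that misses the threshold does not show that the groups were alike.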
